A study of Brassica napus with 48 samples.

Results

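Large flower buds of male-sterile J03 rapeseed plants were compared with middle-sized buds of plants of the same kind. The comparison took 8 of the 48 arrays of the study, chosen by their titles: 4 of large buds (over 3 mm) and 4 of middle buds (1 to 3 mm). It covered 22746 probe sets, all those of the array's 22810 that are no array control.

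The plants were Brassica napus J03A, the sterile plants of a heterozygous two-type line for dominant genic male sterility, with the genotype Msmsrfrf. The fertile plants of the same line, J03B, carry msmsrfrf, and the sterile plants of the homozygous line J10A carry MsMsrfrf; all 3 kinds share rfrf, and the dominant Ms allele marks the sterile ones. The design text places buds under 1 mm at the tetrad stage, buds of 1 to 3 mm at the uninucleate stage and larger buds at the trinucleate stage. The labels of the sterile plants put the middle buds during anther abortion and the large buds after it. Each group held 2 biological replicates with 2 hybridisations each. A sample pooled whole buds from several inflorescences and plants grown in one field. RNA of petals, pistils and anthers was therefore measured together, and fewer cells of a type cannot be told apart from less RNA per cell.

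The tapetum is the innermost wall layer of the anther and feeds the developing pollen. It secretes a glucanase that frees the microspores from their callose wall, then the precursors of the pollen wall and coat, and it dies before the pollen is mature. In genic male sterility, nuclear genes disturb this sequence, and the anther makes no working pollen.

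RNA was hybridised to the Affymetrix ATH1 array, whose probes were designed on Arabidopsis thaliana. A signal here is that of rapeseed transcripts on Arabidopsis probes, and gene names are those of the Arabidopsis gene a probe set was designed for; closely related rapeseed copies cannot be separated. Roles given below are those known in Arabidopsis. Signals are the deposited MAS5 intensities in arbitrary units, in which every array has the same 2% trimmed mean of 500, and levels are not compared between probe sets. Changes are differences of log2(signal + 112.96), large minus middle buds, which understates the change of dim probe sets. They were tested with limma over 14083 probe sets that were bright enough in at least 1 group, and a probe set was called at a Benjamini-Hochberg adjusted p under 0.05.

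The arrays of the middle buds were more alike than those of the large buds. Correlations of log2 signals ranged from 0.797 to 0.828 within middle buds and from 0.739 to 0.802 within large buds. The 2 hybridisations of a replicate correlated at 0.739 to 0.817 (median 0.806). Arrays of different replicates in a group correlated at 0.744 to 0.828 (median 0.800). Hybridisations of the same replicate were thus hardly more alike than separate replicates. Large-bud replicate 1 correlated with the middle-bud arrays at 0.720 to 0.772, and large-bud replicate 2 at 0.776 to 0.808. The mean log2 ratio of 3′ to 5′ control probe sets, a measure of RNA integrity, was 1.36 and 1.27 on the arrays of large-bud replicate 1. It was 1.01 and 0.935 on those of large-bud replicate 2 and between 0.848 and 1.05 on the middle-bud arrays. The defining tapetum genes A9, AMS and SHT were well measured in both bud sizes. Petal and stamen identity genes could not be used as markers, because no member of that list was among the tested probe sets with a single named gene.

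In large buds 66 probe sets were called (0.469% of those tested), 40 of them lower (0.284%) and 26 higher (0.185%) than in middle buds. The median change was -1.77 over the 40 falls and 1.42 over the 26 rises, and -0.01 over all probe sets tested, of which 7.74% had an unadjusted p under 0.05. A single gene was named for 20 of the falls and 9 of the rises. The other 37 calls were unnamed probe sets. Named falls included a glycoside hydrolase, 4 lipid transfer genes and a peroxidase gene, and named rises included an ACC oxidase, a jasmonate oxygenase and a metallothionein gene. The 8 arrays did not overlap between bud sizes for 38 of the 40 falls, beside 2.8% of all probe sets tested, and for 25 of the 26 rises, beside 2.63%.

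The 2 large-bud replicates differed in how near they lay to the middle buds. In 34 of the 40 falls and 20 of the 26 rises, large-bud replicate 2 lay nearer to the middle buds than replicate 1. The same count was not made over all probe sets tested. Over all of these, replicate 2 also correlated more closely with the middle-bud arrays (median 0.794, against 0.738 for replicate 1), so the counts are not particular to the called probe sets. Without large-bud replicate 1, 11 probe sets were called, 9 of them among the 66. Without middle-bud replicate 2, 8 were called, 7 of them among the 66. Without large-bud replicate 2 the count was 103, and without middle-bud replicate 1 it was 43. With the 3′ to 5′ ratio in the model, 63 were called, 57 of them among the 66.

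Among the 24 named genes called by the stated rule, A9, the peroxidase gene AT4G16270 and the ACC oxidase gene AT1G12010 were called in all 19 other settings tried. The call of AT5G52160 ended in 1 of them, without large-bud replicate 1, at an adjusted p of 0.0864. That of ALDH7B4 also ended in 1, with the second hybridisations alone, at 0.61. Without large-bud replicate 1, the calls of 13 of the 15 named falls ended, at adjusted p from 0.0864 to 0.536, and those of 7 of the 9 named rises, at 0.0732 to 0.352. Without middle-bud replicate 2, 12 of the 15 falls (0.0626 to 0.33) and 7 of the 9 rises (0.0874 to 0.32) lost theirs. None of the 24 changed direction in any of these settings.

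**Figure D1:**
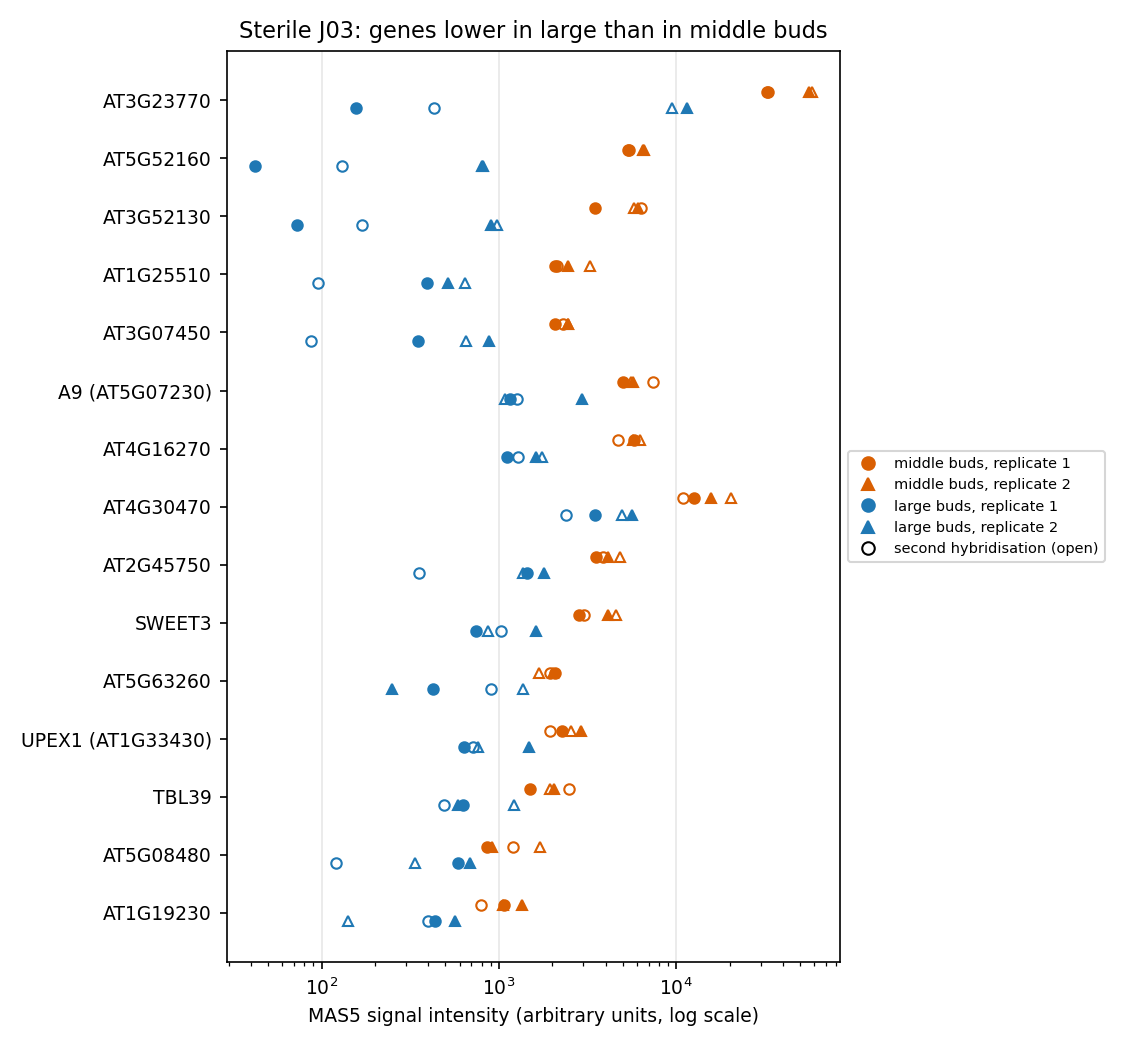
Signal of the 15 named falls on each of the 8 arrays of sterile J03 (log axis); orange marks middle buds, blue large buds, circles replicate 1, triangles replicate 2, and open symbols the second hybridisation. AT3G23770 lay between 32529 and 58668 in middle buds and between 157 and 11519 in large buds, and large-bud replicate 1 lay furthest left for most genes at the top.

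The largest named fall was that of AT3G23770 (probe set 257170_at), a glycoside hydrolase family 17 gene, the family of the callose-degrading glucanases. In middle buds its signals were 32816 and 32529 in replicate 1 and 55926 and 58668 in replicate 2. In large buds they were 157 and 428 in replicate 1 and 11519 and 9500 in replicate 2. All large-bud signals were below all middle-bud signals, but the 2 large-bud replicates lay far apart, and replicate 2 kept a strong signal. The change was -4.43 ± 0.78 (SE, n = 2 replicates a group), with an adjusted p of 0.00506 by limma. This SE and those below use a spread pooled over all 12 groups, not that of the compared samples alone. Without large-bud replicate 1 the change of AT3G23770 was -2.04, and without middle-bud replicate 2 it was -4.03. Its call ended in 4 of the 19 other settings. Besides the loss of either of these replicates, they were the fit of the compared groups only and limma's robust eBayes (adjusted p = 0.153).

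Lipid transfer proteins are small secreted proteins, and several are made in large amounts by the tapetum. A9 (AT5G07230, probe set 250619_at), a classic marker of the tapetum in this family, had signals of 5031, 7435, 5723 and 5525 in middle buds. In large buds it had 1151 and 1261 in replicate 1 and 2929 and 1088 in replicate 2. The groups did not overlap, and the 2 arrays of large-bud replicate 2 lay far apart. The change of A9 was -1.91 ± 0.26 (SE, n = 2), with an adjusted p of 0.000495, and it ranged from -2.34 to -1.48 over the other settings.

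Of the same family, AT5G52160 (248350_at) had 5355, 5416, 6539 and 6496 in middle buds. In large buds it had 41.9 and 131 in replicate 1 and 809 and 801 in replicate 2. It was low in all 4 large-bud arrays, and lowest in replicate 1. Its change was -3.84 ± 0.56 (SE, n = 2), with an adjusted p of 0.000921. AT3G52130 (252090_at) fell by 3.46 on the log2 scale, from 5404 ± 723 to 530 ± 579 (mean ± SD of 2 replicates; adjusted p = 0.0013). AT3G07450 (259063_at) fell by 2.23, from 2318 ± 178 to 494 ± 390 (adjusted p = 0.00506), and without large-bud replicate 1 the change of AT3G07450 was -1.47, at 0.322. All 4 of these lipid transfer genes were among the 10 largest named falls. Other listed lipid transfer genes, AT5G62080, AT5G48490 and AT1G62500, were also tested and were not called.

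The peroxidase gene AT4G16270 (245488_at), known as PRX40 and needed together with PRX9 for an intact tapetum, gave the named fall with the smallest p. Its signals were 5759, 4671, 5706 and 6268 in middle buds. They were 1118, 1277, 1612 and 1756 in large buds. The groups were wide apart and the replicates close together, and the change was -1.89 ± 0.24 (SE, n = 2; adjusted p = 0.000203). PRX9 itself (AT1G44970, 260941_at), looked at after its values were seen, was also called, with a change of -0.98 and an adjusted p of 0.0468. It had 1463 to 1878 in middle buds and 288 to 999.8 in large buds, where a single array, the first of replicate 1, was far below the others. AT1G19230 is the NADPH oxidase gene RBOHE, whose product makes reactive oxygen in the dying tapetum. It went from 1068 ± 187 to 385 ± 46.5 (mean ± SD of 2 replicates), a change of -1.31 (adjusted p = 0.0148 by limma). The call of AT1G19230 ended in 7 of the 19 other settings, including the first and the second hybridisations alone. Its change ranged from -1.56 to -1.03 over the settings.

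UPEX1 (AT1G33430, 256481_at), a galactosyltransferase of the primexine on which the pollen wall is laid down, had 2280, 1930, 2917 and 2566 in middle buds. Its large-bud signals were 640, 711, 1488 and 760. Its replicates did not overlap, and the first hybridisation of large-bud replicate 2 was the highest large-bud array. Its change was -1.38 ± 0.24 (SE, n = 2; adjusted p = 0.00506).

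AT2G45750, a predicted methyltransferase, fell by 1.81 (adjusted p = 0.0013; -1.198, at 0.111, with the first hybridisations alone) and TBL39, of a family of polysaccharide acetyltransferases, by 1.37 (adjusted p = 0.0287). AT4G30470, related to cinnamoyl-CoA reductases, fell by 1.87, from 14935 ± 4483 to 4097 ± 1650 (mean ± SD of 2 replicates; adjusted p = 0.0075). SWEET3, of a family of sugar carriers, fell by 1.70, from 3631 ± 987 to 1064 ± 256 (adjusted p = 0.0075). The aspartyl protease gene AT1G25510 fell by 2.43, from 2479 ± 534 to 412 ± 237 (adjusted p = 0.00138). The remaining named falls were the CCCH zinc finger gene AT5G63260 (-1.47, adjusted p = 0.0241) and the VQ motif gene AT5G08480 (-1.34, adjusted p = 0.0148). Each of these 2 calls ended in 6 of the 19 other settings. AT5G63260 had -2.29 with the first hybridisations alone and -0.64 (adjusted p = 0.78) with the second, and AT5G08480 had -0.42 (adjusted p = 0.87) with the first and -2.26 with the second.

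In addition to PRX9, 4 single-gene probe sets were called lower but stood outside the rule for named genes, and they are given here after their values were seen. AT4G20420, of the tapetum-specific TAP35/TAP44 family, went from 1524 ± 20.5 to 616 ± 6.12 (mean ± SD of 2 replicates), a change of -1.17 (adjusted p = 0.0075). CRT1b, a calreticulin, a chaperone of the endoplasmic reticulum, changed by -1.14 (adjusted p = 0.0111). AT1G75760, of the family of receptors that return proteins to the endoplasmic reticulum, changed by -1.13 (adjusted p = 0.0088), and AT5G62960 by -0.91 (adjusted p = 0.0418). The largest fall of all was that of the unnamed probe set 253222_at, at -4.53 (adjusted p = 0.00862). Its signals were 40320 to 62857 in middle buds, 331 and 292 in large-bud replicate 1, and 11709 and 10174 in large-bud replicate 2, the same split between replicates as in AT3G23770.

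Lists of anther genes were counted next. Of 6 tested genes in the list of tapetum and early anther regulators, 1 was called lower (A9), none higher, and all 6 changes were negative, with a median of -0.92. Over all probe sets tested 0.284% were called lower, 7221 of 14083 were negative, and the median was -0.01. Of these 6 genes, 4 passed the filter in middle or large buds of sterile J03 and 2 only in other groups. AMS, a bHLH transcription factor that drives tapetum genes, had 2400, 1955, 2214 and 2642 in middle buds. In large buds it had 601 and 793 in replicate 1 and 1446 and 1275 in replicate 2. Every large-bud array was below every middle-bud array, yet the change of -1.14 ± 0.27 (SE, n = 2) did not pass, with an adjusted p of 0.0573. It passed in 6 of the 19 other settings, and its adjusted p without large-bud replicate 2 was 0.00185, the lowest of all settings, against 0.809 for the highest. The related bHLH gene AT2G31210 was similar (-1.17, adjusted p = 0.0842). The values were smaller for the glutaredoxin genes ROXY1 (-0.69, adjusted p = 0.751) and ROXY2 (-0.62, 0.807), which act early in anther lobes, and for the receptor kinase gene EMS1 (-0.24, 0.928), which specifies the tapetum.

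Of 7 tested genes for pollen wall and tapetum enzymes, AT3G23770 and UPEX1 were called lower, none was called higher, 5 were negative, and the median was -0.96. Neither of the 2 was called without large-bud replicate 1 or without middle-bud replicate 2. SHT, which attaches hydroxycinnamic acids to spermidine for the pollen coat, had 7072, 6253, 9757 and 9992 in middle buds and 2935, 2860, 6329 and 5331 in large buds. The ranges overlapped slightly, with the lowest middle-bud array just under the highest large-bud array. The change of -0.96 did not pass (adjusted p = 0.403 by limma). Of like size were the values of the chalcone synthase-like gene AT4G00040 (-1.06, adjusted p = 0.377) and of the acyltransferase gene AT4G29250 (-0.87, 0.506). The glucosidase gene ATA27 and the sugar carrier gene SWEET8 had positive values of 0.12 and 0.21 (adjusted p = 0.984 and 0.955). In the list for pollen coat and lipid surface, 4 genes were tested and only AT5G52160 was called; all 4 values were negative, with a median of -0.49.

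**Figure D2:**
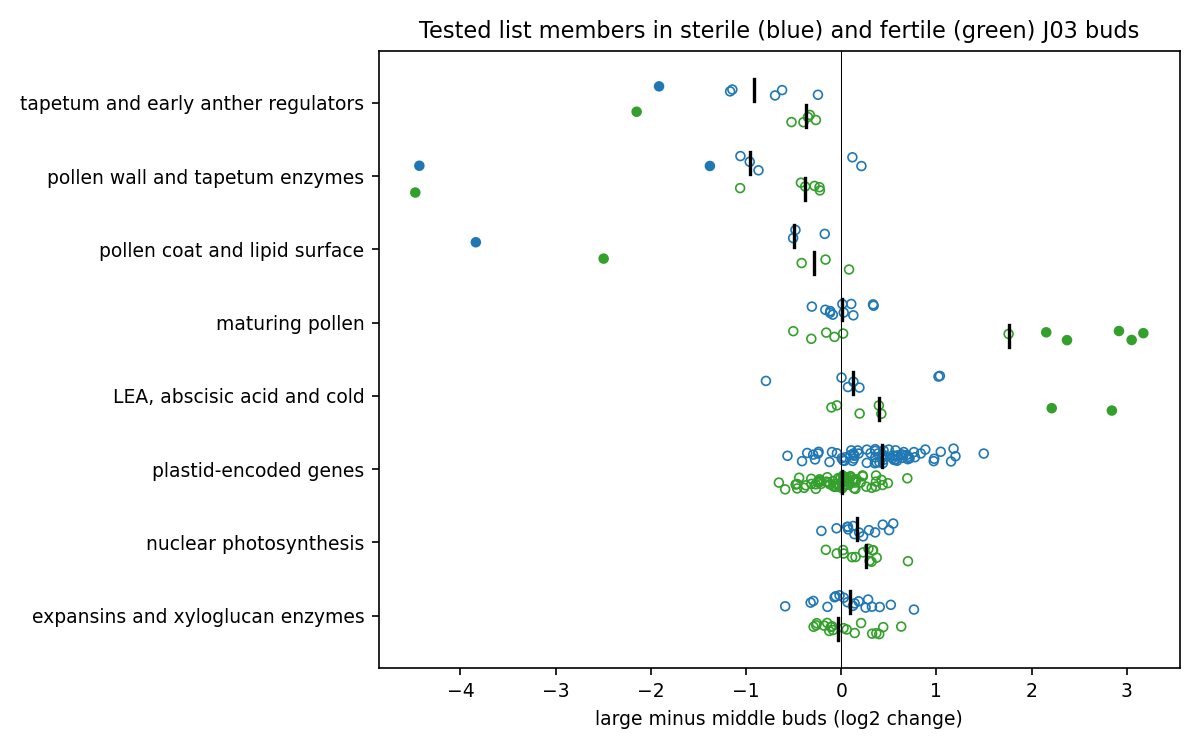
Change from middle to large buds (log2, horizontal axis) of each tested member of 8 gene lists, in sterile J03 (blue) and fertile J03 (green); filled points were called by limma, black bars are list medians, and vertical scatter within a list has no meaning. The tapetum and early anther regulators have a median of -0.92 in sterile buds. Of the 11 maturing pollen genes, 7 passed the filter only outside sterile J03 middle and large buds, and a place near 0 in sterile buds is a description only.

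Of 11 tested genes of maturing pollen, limma called 0 in sterile J03, and 0 had an unadjusted p under 0.05. Only 4 of the 11 were bright enough for the filter in middle or large buds of sterile J03. The other 7 were tested through other groups, 5 of them through large fertile buds alone. Where their signals in sterile buds lay near the offset of 112.96, a change near 0 was nearly fixed, and for the 5 a high level in large fertile buds was what let them be tested. The values are therefore a description. The pollen polygalacturonase gene AT3G07840, for cutting pectin, had 93.7, 226, 99.1 and 150 in sterile middle buds and 93.8, 200, 65.7 and 99.2 in sterile large buds. The arrays of the 2 sizes overlapped throughout. In fertile buds AT3G07840 went from 464 ± 460 to 3964 ± 843 (mean ± SD of 2 replicates).

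ACT12, a pollen actin, had 38.3 to 257 in sterile middle buds and 63.7 to 326 in sterile large buds (change 0.11, adjusted p = 0.984). TET11, a tetraspanin of pollen, had 228 to 668 and 92.2 to 484 (-0.31, adjusted p = 0.89). The pollen aspartic protease gene AT4G04460 and the pollen allergen-like gene AT5G45880 had values of 0.33 and 0.34 in sterile buds (adjusted p = 0.921 and 0.918 by limma). Both were called higher in fertile buds (2.15 and 2.37). AT5G45880 passed the filter only through large fertile buds of J03, so its contrast between fertile and sterile buds is a description only.

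The list for late embryogenesis abundant proteins, abscisic acid and cold, genes of drying tissues and ripe pollen, had 7 tested members. None was called in sterile J03 by limma, and 3 (42.9%) had an unadjusted p under 0.05, beside 7.74% of all probe sets tested. Of the 7, 6 were positive (85.7%, beside 48.7% of all), with a median of 0.13. Single values are given below for AT3G02480, AT5G53820 and AT2G03740 only, and not for COR47, COR15A, COR15B and AT2G03850. Of the 7, AT3G02480 and AT5G53820 passed the filter only outside middle and large buds of sterile J03. AT3G02480 had 45.5 to 73.4 in sterile middle buds and 452, 308, 315 and 48.1 in large buds, so that a single large-bud array stayed at the middle-bud level (1.02, adjusted p = 0.454). AT5G53820 was dim in all 8 arrays, at 19.2 to 226 (0.13, adjusted p = 0.979). AT2G03740, of the same family, had 4388, 3899, 6344 and 6486 in middle buds and 2539, 1386, 5096 and 4037 in large buds (-0.79, adjusted p = 0.45).

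**Figure D3:**
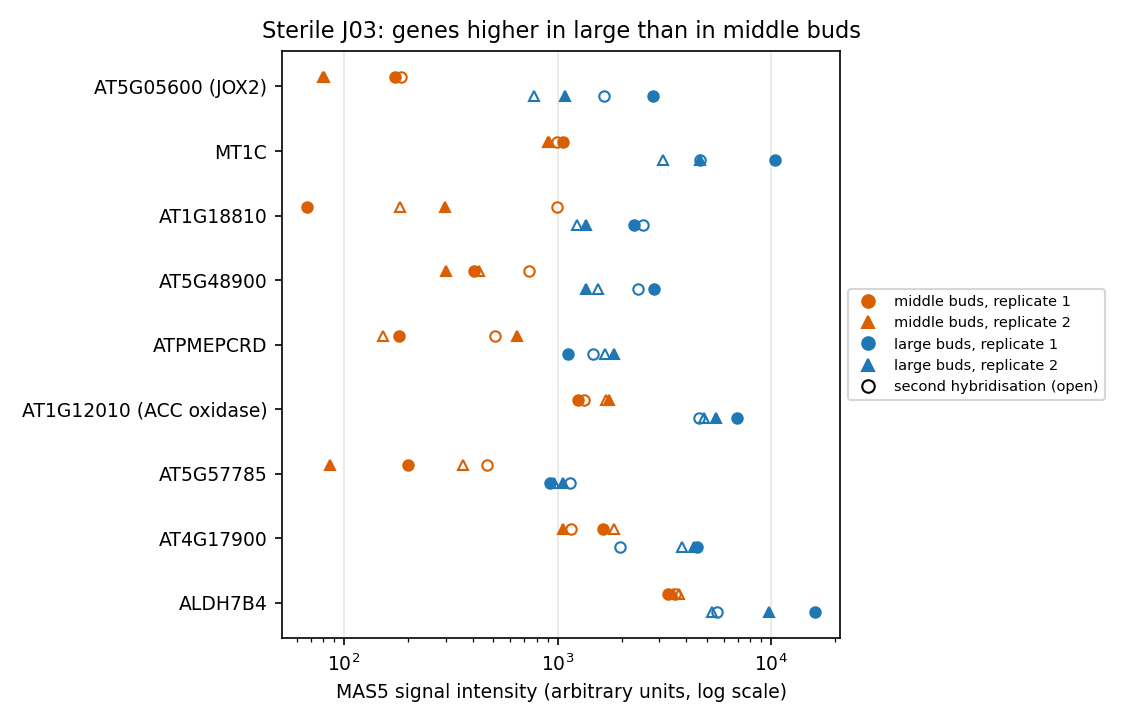
Signal of the 9 named rises on each of the 8 arrays of sterile J03 (log axis), with the symbols of the plot of falls. AT1G12010 lay between 1241 and 1746 in middle buds and between 4608 and 6963 in large buds, and the first hybridisation of large-bud replicate 1 was the brightest array for MT1C and ALDH7B4.

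The rise with the smallest p was that of AT1G12010 (264346_at), an ACC oxidase, the enzyme of the last step of ethylene synthesis. Its signals were 1241, 1326, 1746 and 1686 in middle buds. They were 6963, 4608, 5505 and 4853 in large buds. The groups were far apart on all 8 arrays, and the change was 1.79 ± 0.20 (SE, n = 2; adjusted p = 2.99e-05). It ranged from 1.59 to 1.99 over the other settings. The other tested members of its list, the S-adenosylmethionine decarboxylase gene AT5G15950 and the ethylene-response factor gene EIN3, had values of -0.53 (adjusted p = 0.752) and 0.10 (0.981).

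AT5G05600 (250793_at), known as JOX2, an oxygenase that inactivates jasmonic acid, had 173, 185, 79.6 and 80.4 in middle buds. The large-bud arrays gave 2804, 1649, 1083 and 775. It was dim on every middle-bud array, and its change of 2.69 ± 0.42 (SE, n = 2; adjusted p = 0.00143) was the largest named rise. Of the 3 tested jasmonate and anther dehiscence genes it was the only one called. JMT, which makes methyl jasmonate, had 1318 ± 645 in middle and 3040 ± 939 in large buds (mean ± SD of 2 replicates; 1.22, adjusted p = 0.182). The related oxygenase gene AT2G38240 had a value of the other sign (-0.71, adjusted p = 0.639).

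MT1C (261410_at), a metallothionein, a small metal-binding protein, had 1060, 989, 910 and 898 in middle buds. In large buds it had 10472, 4655, 4663 and 3125. Its middle-bud arrays were nearly equal, and the first hybridisation of large-bud replicate 1 was the brightest of the 8. The change was 2.30 ± 0.40 (SE, n = 2; adjusted p = 0.00455). ALDH7B4, an aldehyde dehydrogenase of stress responses, had 3290, 3541, 3473 and 3707 in middle buds. Large buds gave 16075, 5601, 9831 and 5281. In both replicates the first hybridisation was well above the second, and the change was 1.22 ± 0.17 (SE, n = 2; adjusted p = 0.000667). For ALDH7B4 the first hybridisations alone gave 1.86 and the second 0.57.

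AT5G48900, of the pectate lyase family, had 301 to 732 in middle buds and 1367 to 2832 in large buds, a change of 1.88 (adjusted p = 0.00516). ATPMEPCRD, a pectin methylesterase, had 152 to 648 and 1117 to 1834, a change of 1.88 (adjusted p = 0.0461), and its call ended in 11 of the 19 other settings. The remaining named rises were AT1G18810, related to the phytochrome kinase substrates (2.25, adjusted p = 0.00955), AT5G57785 (1.64, adjusted p = 0.002) and AT4G17900, of the PLATZ zinc finger family (1.27, adjusted p = 0.04). AT1G18810 varied widely among middle-bud arrays, from 67.2 to 998, and its large-bud arrays lay between 1233 and 2511.

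The rises depended more on the hybridisation than the falls. The first hybridisations alone gave 26 rises and 17 falls. The second hybridisations alone gave 2 rises and 26 falls, and of the 9 named rises AT1G12010 alone was still called, the others having adjusted p from 0.0628 to 0.61.

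SWEET3 was the only call among 6 tested genes of sugar transport and cleavage, and the other 5 had values from 0.19 to 0.31. Limma called 0 of 67 plastid-encoded probe sets, and their median was 0.43, against -0.01 over all probe sets tested. Of the 67, 57 (85.1%) were positive, beside 48.7% of all, and 14 (20.9%) had an unadjusted p under 0.05, beside 7.74% of all. In fertile J03 their median was 0.01. Their median log2 signal was 11.34 and 11.38 on the arrays of middle-bud replicate 1 and 10.52 and 10.40 on those of replicate 2. It was 12.14 and 11.43 on those of large-bud replicate 1 and 11.01 and 10.71 on those of replicate 2. Replicate 1 was the higher in both bud sizes, and its middle-bud arrays lay above those of large-bud replicate 2. The part of plastid RNA in the other results was not tested.

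Of 14 nuclear photosynthesis genes, limma called 0, 2 had an unadjusted p under 0.05, and the median was 0.16. RCA, the activase of Rubisco, had 3539 ± 216 and 4117 ± 201 (0.19, adjusted p = 0.926). PRK, a Calvin cycle kinase, had 5267 ± 262 and 6207 ± 247 (mean ± SD of 2 replicates; 0.23, adjusted p = 0.905). In the list of senescence and proteases, limma called 0 of 5, with 1 unadjusted p under 0.05. Its largest value was that of the papain-like protease gene AT4G16190, with 10790 to 14979 in middle buds and 14502 to 23369 in large buds (0.61, adjusted p = 0.474). No member was called by limma among 7 histone, 6 tubulin, 18 expansin and xyloglucan enzyme, 11 MADS-box and 13 mitochondrion-encoded probe sets, where 0, 3, 0, 1 and 1 had an unadjusted p under 0.05. For the tubulins these 3 of 6 stand beside 7.74% of all probe sets tested. None was called in the pistil and ovule list either, with 3 tested and 1 unadjusted p under 0.05.

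**Figure D4:**
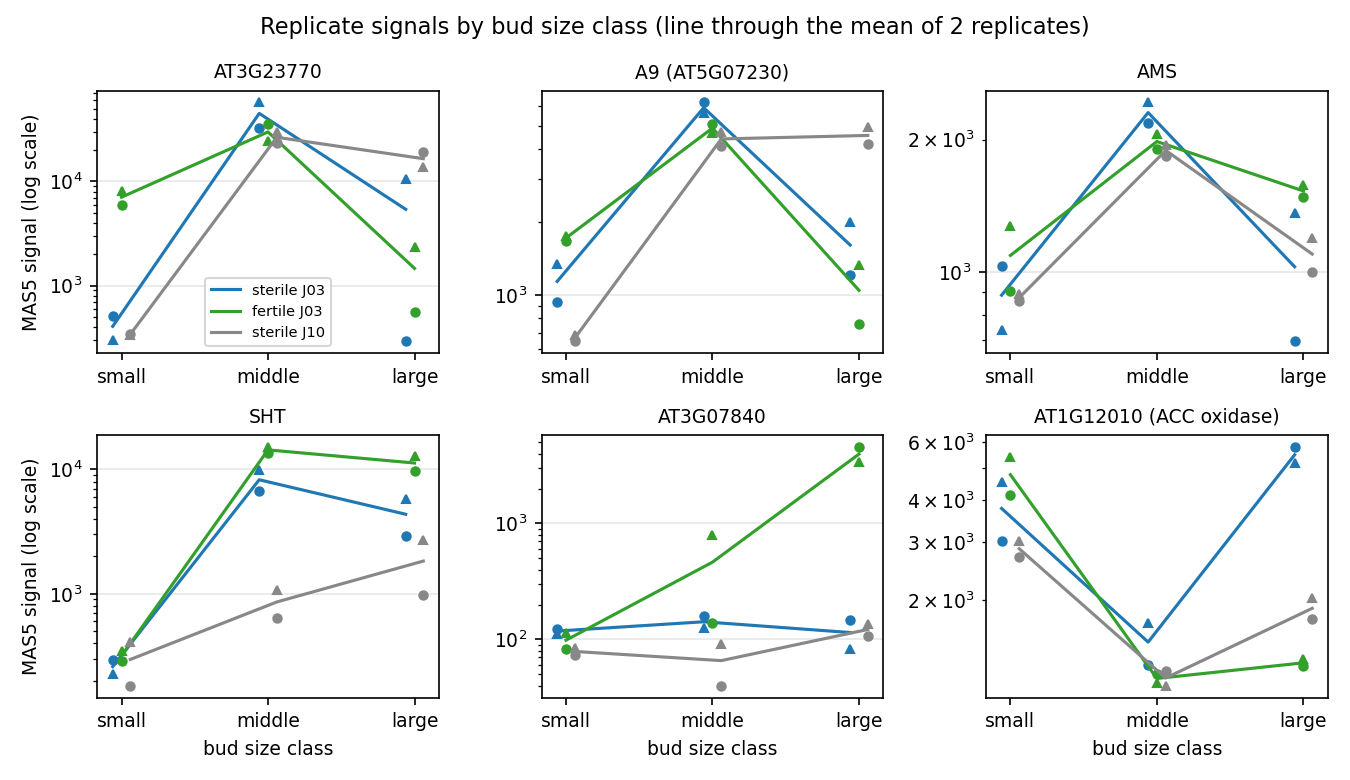
Replicate signals (points; circle replicate 1, triangle replicate 2) and their means (lines) of 6 genes in small, middle and large buds of sterile J03 (blue), fertile J03 (green) and sterile J10 (grey), on log axes whose ranges differ. In sterile J03, AT3G23770 was at 407 in small, 44984 in middle and 5401 in large buds, and AT1G12010 at 3783, 1500 and 5482.

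The smaller buds of sterile J03, under 1 mm, were set beside the middle and large buds. The named genes were chosen by the step from middle to large buds, so only the place of the small buds was free. The shares over all probe sets tested were not counted, and the counts here are a description only. Mean signals of 14 of the 15 named falls were higher in middle buds than in both small and large buds. AT3G23770 had 407 ± 149, 44984 ± 17412 and 5401 ± 7224 in small, middle and large buds (mean ± SD of 2 replicates). A9 had 1138 ± 288, 5928 ± 431 and 1607 ± 567. AT4G16270 was the exception, and it declined throughout, with 8131 ± 613 in small buds. Of the 9 named rises, 6 had their lowest mean in middle buds. AT1G12010 had 3783 ± 1087 in small and 1500 ± 306 in middle buds before the 5482 ± 429 of large buds, and AT5G05600 had 940 ± 520, 130 ± 70 and 1578 ± 917. The step from small to middle buds shares its middle-bud arrays with the step from middle to large buds, so the values are given side by side only.

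The same step in the fertile plants of the line was set beside it. Fertile and sterile J03 samples are separate, and 114 probe sets were called in fertile J03 (0.809%), 37 lower (0.263%) and 77 higher (0.547%). Of the 40 falls in sterile J03, 36 were negative in fertile J03, where 51.4% of all probe sets tested were negative, and the median there was -0.98. Of these falls 18 were also called in fertile J03, 45% of the 40 and 48.6% of the 37. Of the 26 rises, 24 were positive in fertile J03, where 48.6% of all were, with a median of 0.39. Of these rises 7 were also called there, 26.9% of the 26 and 9.09% of the 77. Over all probe sets tested, the 2 steps correlated at 0.247 across genes, which are not independent replicates.

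Among the named falls, AT3G23770 and A9 had changes of similar size in fertile and sterile buds. AT3G23770 changed by -4.47 in fertile J03 (adjusted p = 0.00295), and the difference between sterile and fertile changes was 0.04 ± 1.11 (SE). A9 changed by -2.15 in fertile J03 (adjusted p = 6.16e-05), with a difference of 0.24 ± 0.37 (SE). The named falls least like the fertile step were RBOHE (AT1G19230), at 592 ± 25.8 in middle and 600 ± 1.48 in large fertile buds (mean ± SD of 2 replicates), and UPEX1 (AT1G33430), at 2696 ± 115 and 2010 ± 218. Neither difference passed the test, at -1.34 ± 0.38 (SE, adjusted p = 0.47) for AT1G19230 and -0.96 ± 0.34 (SE, adjusted p = 0.735) for AT1G33430.

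**Figure D5:**
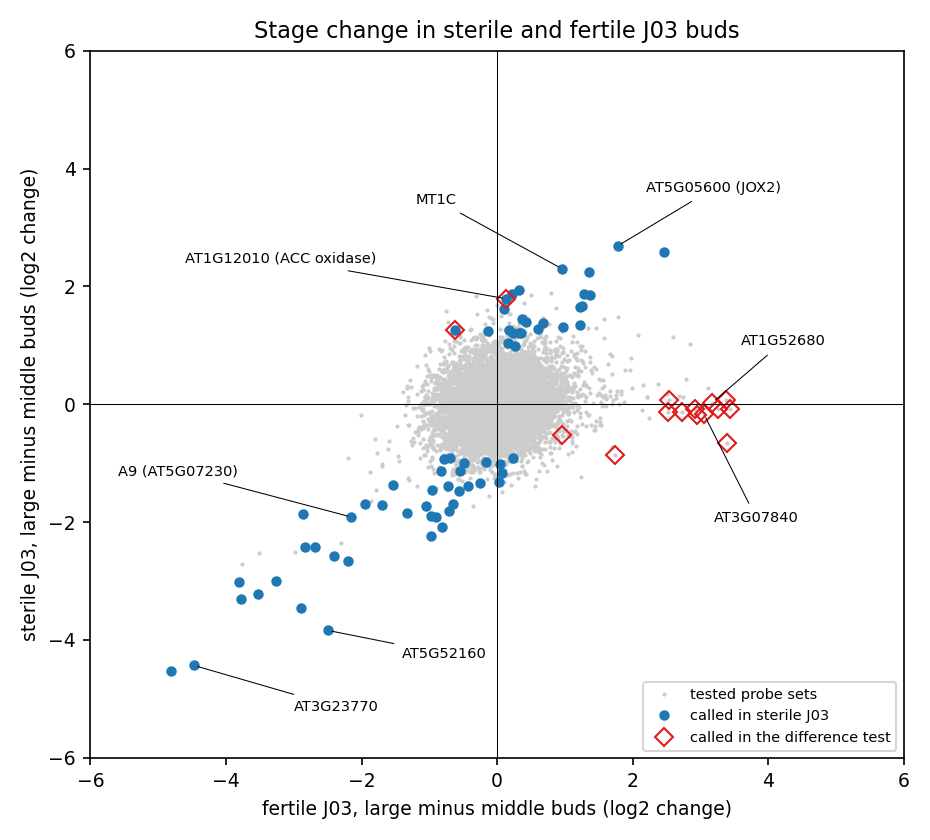
Change from middle to large buds (log2) of each tested probe set in fertile J03 (horizontal) and sterile J03 (vertical); blue points were called in sterile J03, red diamonds in the test of the difference. The largest falls lie along the diagonal, AT3G23770 at -4.47 and -4.43, while AT3G07840, AT1G52680 and AT1G63060, tested only through large fertile buds, lie near 0 in sterile buds, where they were dim.

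The difference between the steps was called for 15 probe sets (0.107% of those tested), 13 lower (0.0923%) and 2 higher (0.0142%) in sterile J03. None of the 40 falls and 2 of the 26 rises were among them. Of the 4 named genes with the lower change in sterile buds, AT3G07840, AT1G52680 and AT1G63060 passed the filter only through large fertile buds. They were dim in sterile J03, so a change near 0 there was nearly fixed. AT2G46140 passed in all 12 groups. AT3G07840 differed by -3.22 ± 0.63 (SE, n = 2 replicates in each of 4 groups; adjusted p = 0.0427). AT1G52680, related to late embryogenesis abundant proteins, differed by -3.15 ± 0.59 (adjusted p = 0.029), with 65.4 ± 41 and 63.1 ± 29.5 in sterile middle and large buds and 56.4 ± 18.5 and 1400 ± 100 in fertile ones (mean ± SD of 2 replicates).

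AT1G63060 had 85.1 ± 73.6 and 70.7 ± 37.2 in sterile buds, and 66.8 ± 49.4 and 1225 ± 111 in fertile buds. Its difference was -3.01 ± 0.55 (adjusted p = 0.027). AT2G46140, of the late embryogenesis abundant family, had 2556 ± 335 and 1804 ± 403 in sterile buds and rose from 2188 ± 106 to 4534 ± 1035 in fertile ones, a difference of -1.47 ± 0.29 (adjusted p = 0.0428). All 4 calls ended without large-bud replicate 1 of sterile J03, and also without its replicate 2. They ended too at an offset of 16, at the 75th percentile filter and with either hybridisation alone. Of the 23 other settings, the call ended in 14 for AT3G07840, 12 for AT1G52680, 12 for AT1G63060 and 15 for AT2G46140.

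AT1G12010 was the named gene with the higher change in sterile buds. In fertile J03 its signals were 1166 ± 50.1 in middle and 1299 ± 42.9 in large buds, both near the sterile middle buds. The difference was 1.65 ± 0.28 (SE, adjusted p = 0.012). Over the other settings it ranged from 1.46 to 1.85, and it was called in 14 of 23, with an adjusted p of 0.0792 without large-bud replicate 1 of sterile J03. The count of differences was 1 to 6 in 7 of the 8 settings that left out 1 replicate of these groups, against 15 with all replicates.

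In sterile buds of the other line, J10, 10 probe sets were called for the same step (0.071%), 7 lower (0.0497%) and 3 higher (0.0213%). All 7 of these falls were among the 40 of sterile J03, 17.5% of the 40, and 1 of the 3 rises was among the 26. Of the 40 falls, 33 were negative in J10, where 49% of all were, with a median of -0.63; of the 26 rises, 20 were positive, where 51% of all were, with a median of 0.53. Of the 15 named falls, 5 were called by limma in sterile J10 as well. They were the lipid transfer genes AT3G52130 (-3.06, adjusted p = 0.0127) and AT3G07450, and AT4G16270 (-1.34, 0.0164), SWEET3 (-2.26, 0.00288) and AT2G45750. A9 was at 4406 ± 427 in middle and 4556 ± 527 in large buds of sterile J10 (mean ± SD of 2 replicates), and AT3G23770 at 26533 ± 4357 and 16541 ± 3811. The difference between lines did not pass for A9 (-1.98 ± 0.37 SE, adjusted p = 0.0743) or AT3G23770 (-3.79 ± 1.11, 0.487).

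The difference between the lines was called for 2 probe sets (0.0142%), both lower in J03, and for 0 (0%) higher in J03. AT2G03740 did not pass in sterile J03 but rose in sterile J10, from 259 ± 90.2 to 1195 ± 558 (mean ± SD of 2 replicates; 1.85, adjusted p = 0.0108), and the difference was -2.64 ± 0.44 (SE, adjusted p = 0.0233). The unnamed probe set 250860_at had 1514 ± 258 and 420 ± 150 in sterile J03 and 235 ± 262 and 729 ± 390 in sterile J10, a difference of -3.46 ± 0.57 (adjusted p = 0.0233). Without large-bud replicate 1 of sterile J03 neither was called, and AT2G03740 then had an adjusted p of 0.197; without large-bud replicate 2, 19 were called.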

How the data were processed

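Deposited values were MAS5 signal intensities of 48 arrays; the authors' MAS5 step comes from the submitters' processing notes, and its version and settings are not given in the sources used here. Each array had a 2% trimmed mean of 500. Signals were taken as log2(signal + 112.96), the offset being the median of the arrays' 25th percentiles, and the 2 hybridisations of a replicate were averaged. Probe sets were kept where the mean signal reached 359.95, the median of the array medians, in both replicates of at least 1 of the 12 groups. All 12 groups were fitted together with limma 3.58.1 in R 4.3.3 (eBayes with an intensity trend, 12 residual degrees of freedom), with Benjamini-Hochberg adjustment over the 14083 probe sets of each comparison. The script was tested on simulated data.

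Of the 22746 probe sets, 13513 had a single gene in the platform's annotation, 503 several and 8730 none. Named genes were taken from called single-gene probe sets whose replicates did not overlap (up to 15 a direction, by size of change), with up to 4 called members of a list, up to 5 a direction in each difference test and 15 fixed genes. Of 26 gene lists, 21 had a tested member. The comparison, its members and the lists were chosen with earlier results of these data known. The 3′ to 5′ ratio used the second actin, GAPDH and ubiquitin control set after the first gave an extreme GAPDH value. Whether replicates came from separate plants is stated only as biological repetition. Standard errors and p-values rest on a spread pooled over all 12 groups and moderated across probe sets, not on that of the compared samples alone. Same-numbered middle- and large-bud samples deviated together at r = 0.03 and were not treated as pairs. With 2 replicates a group, the number of arrays limits the precision, and the median standard error of a change was 0.32.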

Additional observations from a re-analysis of the deposited data

Results flagged for a closer look

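In 82 groups of 4 arrays examined for a single array far from the others, 3 stood out; chance gives about 1 in 20 such groups. AT3G52130 in middle buds had its first hybridisation of replicate 1 at 3477 against 5754 to 6309 on the others, a gap of 0.845 of the range. A9 (AT5G07230) in large buds had its first hybridisation of replicate 2 at 2929 against 1088 to 1261, a gap of 0.856. AT5G53820 in middle buds had its second hybridisation of replicate 1 at 226 against 19.2 to 38.5, a gap of 0.855.

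In 6 named genes the step from middle to large buds differed from that of another group by the test of the difference with limma. Against fertile J03, the difference was 1.65 for AT1G12010, -3.22 for AT3G07840, -3.15 for AT1G52680, -3.01 for AT1G63060 and -1.47 for AT2G46140. AT3G07840, AT1G52680 and AT1G63060 passed the filter only through large fertile buds and were dim in sterile J03. Their sterile change was therefore nearly fixed in advance, and their differences are a description only. Against sterile J10, it was -2.64 for AT2G03740.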

How the results depend on the processing

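Of the 66 calls in sterile J03, 57 or more were among the calls at offsets of 16 and 300, without a filter, at the 75th percentile filter, with quantile normalization, aligned array medians, a covariate for the 3′ to 5′ ratio and robust eBayes; fitting the compared groups only gave 53 calls, 42 of them shared. The count was 43 with the first hybridisations, 28 with the second, 116 with all 48 arrays, where each replicate was a random block, and 42 without the intensity trend; it ran from 8 to 103 when 1 replicate was left out. The causes were not tested. With the replicate block it was 77, including all 66; same-numbered samples were not paired, and the blocked fit ended no call of the 24 named genes.

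The 15 differences from fertile J03 became 4 at an offset of 16, 6 at the 75th percentile filter, 3 and 2 with the first and second hybridisations, 24 with all 48 arrays and 7 without the trend, 1 to 13 with 1 replicate left out, and 16 with the replicate block. The 2 differences from sterile J10 became 1 at an offset of 16, 5 at 300, 0 among the compared groups only (747 at an unadjusted p under 0.05), 1 and 0 (903 unadjusted) with the first and second hybridisations, 10 with all 48 arrays, 4 with the replicate block, 0 without the trend (846 unadjusted), and 1 without the large-bud array least like its group, a setting chosen after seeing the data; with 1 replicate left out they ran from 0 to 19.

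Some uncalled values near 0 changed sign. With the second hybridisations RCA was -0.0854, AT5G53820 -0.19, ACT12 -0.0295 and AT1G63060 0.37; with the first, AT1G52680 was -0.24. Without the least alike array AT5G53820 was -0.0705 and ACT12 -0.0417. With 1 replicate left out, AT5G53820 ran from -0.24 to 0.49, ACT12 from -0.0335 to 0.24, AT3G07840 from -0.36 to 0.0267, TET11 from -0.62 to 0.0029, AT1G52680 from -0.18 to 0.23 and AT1G63060 from -0.44 to 0.27. Dim probe sets limit the low end, since a signal near the offset hardly moves the log2 value.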
